A study of Mus musculus with 6 samples.

Results

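Nucleolar ribosome biogenesis genes encode the proteins that transcribe ribosomal RNA, modify and cut it, and assemble it with ribosomal proteins into the 40S and 60S subunits of the ribosome. They were examined in proB cells of mouse bone marrow, the B-lymphocyte precursors that rearrange the immunoglobulin heavy chain gene. The members were taken by name: of 40 listed symbols, 39 were found among the 22098 symbols of the expression table, Noc2l was not found under that symbol, and a symbol with several transcripts was given by its most abundant one on average. Of the 39, 38 had a mean of at least 1 RPKM (reads scaled by transcript length and library size) over the 6 libraries, as did 10943 genes in all. Ddx18, at 0.4 to 0.8 RPKM, was the member under that minimum and was not tested.

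The 6 libraries comprised 1 for each of 3 genotypes in each of 2 sorted stages, all from mice of strain C57BL/6 aged 6 to 7 weeks. The genotypes were wild type (wt) and mice homozygous for a mutation of zinc finger 1 (Ikaros_ZnF1-/-, called ZnF1) or zinc finger 4 (Ikaros_ZnF4-/-, called ZnF4) of Ikaros, a DNA-binding regulator of lymphocyte development. The stages were Hardy fraction B and a pool of C with C' (here fraction C), consecutive steps of early B-cell development told apart by surface markers. The mix of C and C' in each pool is not known here. The labels do not give the number of animals per library, or whether the 2 fractions of a genotype came from the same animals. No pair of libraries has replicates behind its difference. The question put to these genes was whether they followed the low level of Myc in the ZnF4 libraries.

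Ribosome production begins in the nucleolus, where RNA polymerase I makes the precursor of ribosomal RNA. Small nucleolar ribonucleoproteins (snoRNPs) then modify that precursor, the small subunit (SSU) processome and later factors release the 40S subunit, and a further set of factors builds the 60S subunit. Myc, a transcription factor that drives cell growth, is known to raise the transcription of many of these genes in lymphocytes and other cells.

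All 14 defining proB genes on a marker list, among them Cd79a, Pax5, Ebf1 and Igll1, were measured above 0 in every library. RNA of marker genes of other cells differed between libraries. Whether it came from other cells in the sort or from the proB cells themselves was not tested. Granulocyte or erythroid RNA below means the RNA of such marker genes. The summed level of 16 granulocyte and monocyte markers was 43724.5 RPKM in the ZnF1 library of fraction C against 1035.5 to 3889.0 in the other 5, and that of 11 erythroid markers 2191.9 against 68.9 to 203.5. Natural killer markers summed to 91.4 and 47.3 RPKM in wt (fractions B and C) and to 2.5 and 9.6 in ZnF4, where 2 and 9 of 10 stood above 0. Sex also differed with genotype: Xist was listed at 0 in the 4 mutant libraries and at 81.3 and 91.9 RPKM in wt, and 4 Y-linked genes were listed at 0 in wt alone. Sex and genotype therefore cannot be told apart in any comparison with wt, and the X-linked member is Dkc1.

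Members stood lower in the ZnF4 libraries than in wt in both fractions. Of 38 members, 37 were lower in fraction B and 37 in fraction C, against 55.8% and 53% of all tested genes, and Imp3 was the exception in both. The median difference in log2(RPKM + 1) was -0.65 in fraction B (1.56-fold lower) and -0.89 in fraction C (1.85-fold lower), beside -0.09 and -0.05 for all tested genes. At least 1.5-fold lower were 20 members in fraction B and 30 in fraction C, where the shares of all genes were 21.3% and 15.8%. At least 2-fold lower were 13 and 17 (9.81% and 6.12% of all genes). In both fractions together, 20 members were at least 1.5-fold lower (12.5% of all genes) and 12 at least 2-fold (4.73%). No member was 1.5-fold higher in either fraction, where 10.1% and 9.48% of all genes were. In 32 of 38 members both ZnF4 libraries lay below both wt libraries, an order that 33% of all tested genes showed. In bulk RNA, fewer cells with a transcript and less of it per cell cannot be told apart.

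**Figure D1:**
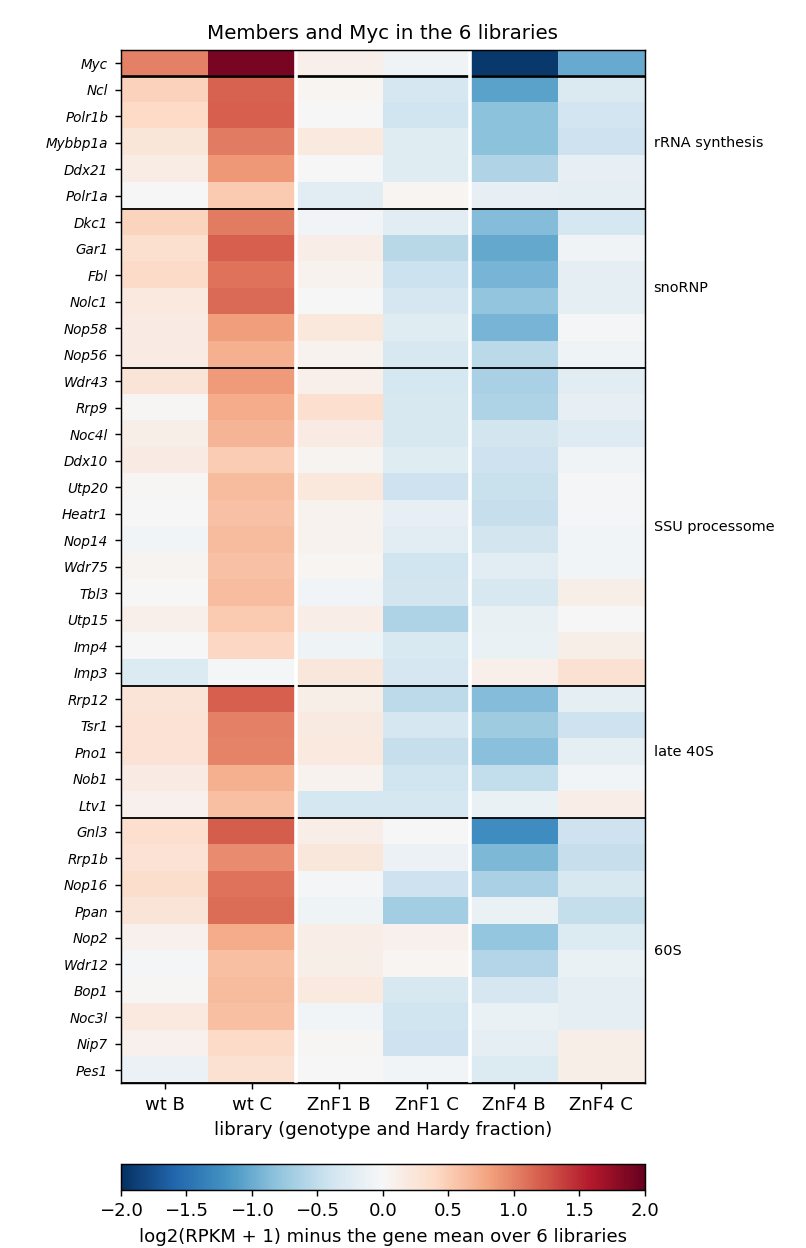
Heat map of log2(RPKM + 1) minus each gene's mean over the 6 libraries (colour) for Myc and the 38 members past the filter (rows, grouped by role) in the 6 libraries (columns). The wt library of fraction C is the reddest column and holds the highest value of 37 members (24.6% of all tested genes). The ZnF4 library of fraction B holds the lowest value of 28 (32.4% of all tested genes).

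The 5 members of ribosomal RNA synthesis included some of those furthest below wt in ZnF4. The 12 other tested genes of polymerase I and its factors had medians of only -0.13 and -0.21 (fractions B and C). Ncl, nucleolin, an abundant nucleolar RNA-binding protein that binds precursor ribosomal RNA, was at 111.1 and 183.5 RPKM in wt (fractions B and C), 82.5 and 62.9 in ZnF1, and 37.8 and 65.2 in ZnF4. Polr1b, which encodes the second largest subunit of RNA polymerase I, was at 12.1 and 21.7 RPKM in wt, 9.0 and 6.5 in ZnF1, and 4.6 and 6.6 in ZnF4. For both genes the wt libraries lay above all 4 mutant libraries. Polr1a, the largest subunit of the same enzyme, differed less: it was at 17.0 and 24.8 RPKM in wt, 15.1 and 14.9 in ZnF4 and 14.5 and 17.4 in ZnF1 (fractions B and C). Its wt library of fraction C stood apart from the other 5, and the wt library of fraction B lay just under the highest ZnF1 value. The differences from wt in ZnF4 were 2.89-fold and 2.79-fold lower for Ncl, 2.34-fold and 2.99-fold for Polr1b, and 1.12-fold and 1.62-fold for Polr1a. Mybbp1a, a nucleolar protein that binds Myb and is found with the polymerase I machinery, was 2.09-fold and 2.74-fold lower, and Ddx21, an RNA helicase of ribosomal RNA transcription and processing, 1.69-fold and 2.04-fold. The median over the 5 genes was -1.07 in fraction B and -1.45 in fraction C on the log2 scale.

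Compared with wt, ZnF4 had all 6 snoRNP genes at least 1.5-fold lower in either fraction, with medians of -1.20 and -1.26. Dkc1, dyskerin, the pseudouridine synthase of the box H/ACA particles, was at 35.6 and 54.3 RPKM in wt, 24.8 and 21.8 in ZnF1 and 13.7 and 20.1 in ZnF4 (fractions B and C). Gar1, its partner in the same particle, was at 20.5 and 38.6 in wt, 17.9 and 10.8 in ZnF1 and 7.5 and 15.5 in ZnF4. The 2 genes separated the ZnF4 libraries from both wt libraries, while the lowest fraction C value of Gar1 was that of ZnF1. Nop56, a core protein of the box C/D particles that guide methylation, had the smallest difference of the 6: 55.9 and 81.9 RPKM in wt, 52.5 and 39.9 in ZnF1 and 33.9 and 46.7 in ZnF4. Its relatives in that particle, Nop58 and the methyltransferase Fbl, were 2.13-fold and 1.82-fold, and 2.47-fold and 2.41-fold, lower in ZnF4. Nolc1, a chaperone of snoRNPs, was 1.98-fold and 2.51-fold lower. The level of Fbl was low throughout, at 0.9 to 6.7 RPKM.

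Genes of the SSU processome differed less from wt, with medians of -0.39 and -0.63 over 12 genes, of which 2 and 7 were at least 1.5-fold lower. In fraction B that count, 16.7% of the 12, was under the 21.3% of all tested genes, and in fraction C it was 58.3% against 15.8%. Wdr43, a subunit that joins the nascent precursor early, was at 31.2 and 47.6 RPKM in wt, 28.0 and 20.1 in ZnF1 and 16.2 and 22.3 in ZnF4 (fractions B and C). Rrp9, a protein of the U3 snoRNP, was at 16.0 and 26.9 RPKM in wt, 20.1 and 12.3 in ZnF1 and 9.9 and 13.8 in ZnF4. These were the processome genes with the largest mean difference (1.87-fold and 2.09-fold lower, and 1.56-fold and 1.89-fold lower). Imp3, another U3-associated protein, was the single member above wt in both fractions: 17.3 and 20.5 RPKM in wt, 24.9 and 16.5 in ZnF1 and 22.5 and 26.2 in ZnF4, 1.28-fold and 1.27-fold higher in ZnF4. The ZnF4 values of Imp3 lay above both wt values. Its partner Imp4 was 1.09-fold and 1.23-fold lower. The remaining 8 (the large scaffold proteins Heatr1 and Utp20, the helicase Ddx10, Noc4l, Nop14, Wdr75, Tbl3 and Utp15) were 1.19-fold to 1.48-fold lower in fraction B and 1.40-fold to 1.91-fold lower in fraction C. In the mouse annotation, 25.8% of the exonic bases of Tbl3, one of these 8, also lie in exons of Noxo1 on the opposite strand, and the use of strand in counting is not given in the sources used here.

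Among the 5 genes of late 40S maturation the medians were -1.01 and -1.19. Rrp12, an export factor of pre-ribosomes, was at 10.3 and 20.6 RPKM in wt, 9.3 and 5.6 in ZnF1 and 4.2 and 7.4 in ZnF4. Tsr1, a GTPase-like protein that keeps the immature subunit from joining translation, was at 22.9 and 38.2 in wt, 21.2 and 14.4 in ZnF1 and 10.9 and 13.6 in ZnF4. Rrp12 was thus 2.17-fold and 2.57-fold lower and Tsr1 2.01-fold and 2.69-fold lower in ZnF4, while ZnF1 in fraction B lay close to wt. Of the exonic bases of Tsr1, 34.2% overlap exons of Srr on the opposite strand. Pno1, a factor that holds the end of the immature RNA, was 2.17-fold and 2.28-fold lower, and Nob1, the nuclease that makes the last cut of 18S RNA, 1.57-fold and 1.70-fold lower. Ltv1, an assembly factor, differed least, with 21.8 and 31.7 RPKM in wt, 15.9 in both ZnF1 libraries and 18.5 and 22.5 in ZnF4.

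The 10 tested genes of the 60S subunit spread widest. Gnl3, nucleostemin, a nucleolar GTPase known from stem and proliferating cells, had the largest mean difference of all members: 43.5 and 80.1 RPKM in wt, 37.4 and 34.1 in ZnF1 and 13.9 and 25.3 in ZnF4, 2.99-fold and 3.08-fold lower in ZnF4. Rrp1b was at 11.1 and 18.1 RPKM in wt, 10.5 and 8.1 in ZnF1 and 4.3 and 6.2 in ZnF4. Pes1, a subunit of the PeBoW complex, was at 5.1 and 7.2 in wt, 5.6 and 5.4 in ZnF1 and 4.5 and 6.2 in ZnF4, so its groups overlapped. Its partners in that complex were 1.28-fold and 1.75-fold (Bop1) and 1.46-fold and 1.67-fold (Wdr12) lower in ZnF4. Ppan was the member whose fractions differed most, 1.31-fold lower in fraction B (37.4 and 28.3 RPKM) and 3.0-fold lower in fraction C (68.1 and 22.0). Nop2, an RNA methyltransferase, and Nop16 were 1.81-fold and 2.03-fold, and 2.0-fold and 2.64-fold, lower. Noc3l was 1.25-fold and 1.71-fold lower, and Nip7, a late assembly factor, 1.21-fold and 1.20-fold. Of the 10, 6 thus had a difference under 1.5-fold in fraction B.

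**Figure D2:**
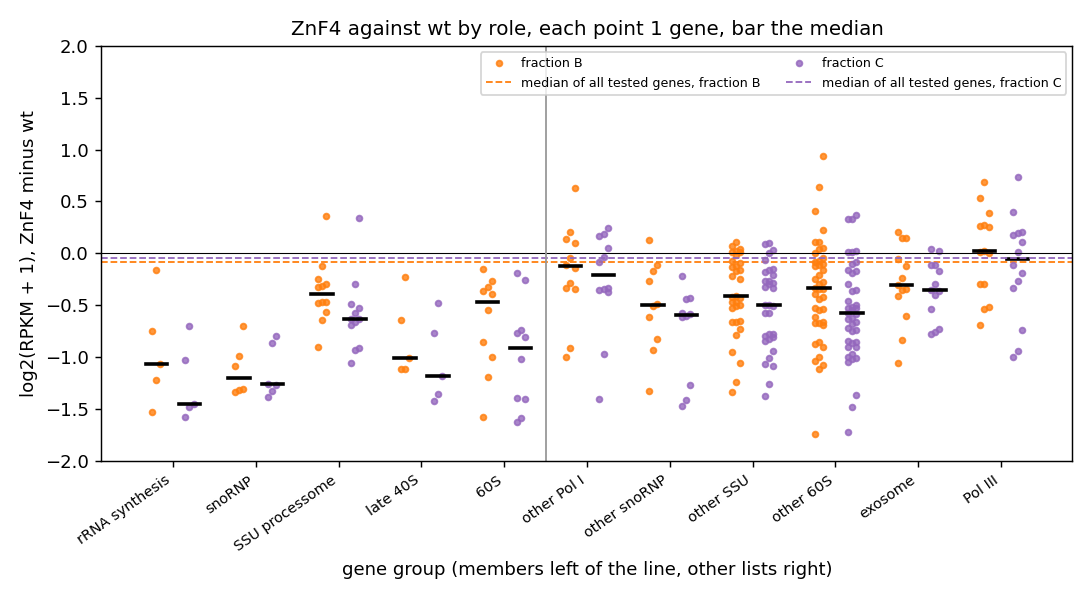
Difference in log2(RPKM + 1), ZnF4 minus wt (vertical axis), of each member by role and of each gene on 6 other lists (horizontal axis), with fraction B in orange and fraction C in purple; points are genes, black bars medians and dashed lines the medians of all tested genes. The snoRNP genes lie lowest in fraction B and the ribosomal RNA synthesis genes in fraction C (medians -1.20 and -1.45), and RNA polymerase III genes lie around 0.

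With additive terms for genotype and fraction over all 6 libraries, limma called 0 of 38 members for ZnF4 against wt at a Benjamini-Hochberg adjusted p under 0.05, and 16 had an unadjusted p under 0.05 as lower, against 9.74% of all tested genes. The smallest adjusted p in limma was 0.136, for Dkc1 (log2 -1.35, SE 0.25). Only 2 of 10943 genes, or 0.0183%, were called lower, and Myc itself had an adjusted p of 0.0896 in limma. This model has 2 residual degrees of freedom, and its spread comes from genotype differences that vary between the fractions. Refitted to the 4 wt and ZnF4 libraries, with 1 residual degree of freedom, limma called 28 of 38 members as lower and 0 as higher, against 19.4% and 12.5% of all tested genes. Without the ZnF1 library of fraction C, which holds the granulocyte RNA, the count was also 28 (19.3% of all genes), as it was without the ZnF1 library of fraction B (19.1%). Without any 1 of the wt or ZnF4 libraries it was 0.

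In the fit of 4 libraries the called members comprised 4 of 5 genes of ribosomal RNA synthesis, 6 of 6 of the snoRNPs, 8 of 12 of the SSU processome, 4 of 5 of late 40S maturation and 6 of 10 of the 60S subunit. Gnl3 fell by 1.60 on the log2 scale (SE 0.09, adjusted p = 0.00442 in limma), lower in 2 of 2 fractions. Dkc1 fell by 1.35 (SE 0.10, adjusted p = 0.00479 in limma), and Polr1b by 1.40 (SE 0.14, adjusted p = 0.00653 in limma). Polr1a, Wdr75, Utp15, Imp4, Imp3, Ltv1, Ppan, Noc3l, Nip7 and Pes1 were not called. For Polr1a the estimate was -0.43 (SE 0.16) with an adjusted p of 0.0997 in limma, and for Imp3 it was 0.35 (SE 0.10) with 0.0527.

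Promoter windows of 300 bases, 250 before to 50 after the annotated start (RefSeq, build GRCm38.p6), were found for 35 of the 39 members, and 9 of these held CACGTG, the canonical E-box that Myc with its partner Max can bind. That share was 25.7%, against 12.3% of 8720 tested genes with a window and 8.09% of all 27017 genes with one. The E-box is its own reverse complement, so both strands are covered. In 7 of the 9 members it lay just after the start, with its leading base at positions, counted from 1 at the start, 3 (Pes1), 18 (Wdr43), 25 (Tsr1), 29 (Ltv1), 38 (Pno1 and Utp20) or 41 (Mybbp1a), and in Nop2 and Imp4 it lay before it, at -60 and -121. The windows of the 5 such members with the largest mean difference between ZnF4 and wt are shown with that of Imp3, which was higher in ZnF4 and holds none; capitals mark CACGTG.
Mybbp1a (chr11:72441077-72441376, plus strand): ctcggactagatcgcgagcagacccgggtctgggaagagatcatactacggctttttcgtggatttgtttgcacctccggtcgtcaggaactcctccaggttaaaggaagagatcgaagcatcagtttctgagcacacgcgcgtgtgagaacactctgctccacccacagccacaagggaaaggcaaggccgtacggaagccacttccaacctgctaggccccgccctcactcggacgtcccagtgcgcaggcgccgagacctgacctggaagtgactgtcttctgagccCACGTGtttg
Tsr1 (chr11:74897830-74898129, plus strand): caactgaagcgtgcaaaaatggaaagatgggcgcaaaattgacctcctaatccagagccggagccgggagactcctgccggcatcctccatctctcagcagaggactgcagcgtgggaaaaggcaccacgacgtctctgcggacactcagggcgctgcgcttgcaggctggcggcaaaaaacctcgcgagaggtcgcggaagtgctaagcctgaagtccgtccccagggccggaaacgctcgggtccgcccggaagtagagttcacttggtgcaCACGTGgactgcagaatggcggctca
Pno1 (chr11:17211540-17211839, minus strand): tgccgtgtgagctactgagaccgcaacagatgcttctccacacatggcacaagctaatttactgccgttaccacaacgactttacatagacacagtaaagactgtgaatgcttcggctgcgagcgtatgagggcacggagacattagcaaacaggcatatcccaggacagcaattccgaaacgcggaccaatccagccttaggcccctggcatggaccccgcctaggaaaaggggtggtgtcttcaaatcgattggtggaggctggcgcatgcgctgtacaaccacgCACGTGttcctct
Wdr43 (chr17:71615965-71616264, plus strand): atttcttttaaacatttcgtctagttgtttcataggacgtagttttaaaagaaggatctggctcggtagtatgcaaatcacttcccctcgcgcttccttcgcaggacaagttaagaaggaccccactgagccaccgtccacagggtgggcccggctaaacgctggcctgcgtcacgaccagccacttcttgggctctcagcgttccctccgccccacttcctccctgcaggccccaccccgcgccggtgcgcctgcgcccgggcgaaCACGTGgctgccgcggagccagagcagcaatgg
Nop2 (chr6:125131633-125131932, plus strand): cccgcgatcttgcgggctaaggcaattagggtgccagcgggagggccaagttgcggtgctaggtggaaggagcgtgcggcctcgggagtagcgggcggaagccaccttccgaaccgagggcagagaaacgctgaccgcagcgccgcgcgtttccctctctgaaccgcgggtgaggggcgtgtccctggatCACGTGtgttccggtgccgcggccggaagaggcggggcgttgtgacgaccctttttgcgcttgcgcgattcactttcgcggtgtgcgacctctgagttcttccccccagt
Imp3 (chr9:56937250-56937549, plus strand): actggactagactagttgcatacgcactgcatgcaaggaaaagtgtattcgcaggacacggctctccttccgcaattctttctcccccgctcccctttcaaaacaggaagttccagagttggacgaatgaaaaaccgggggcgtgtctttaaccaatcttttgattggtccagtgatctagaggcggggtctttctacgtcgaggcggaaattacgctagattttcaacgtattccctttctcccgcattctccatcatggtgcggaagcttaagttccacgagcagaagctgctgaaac

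Members with and without the motif overlapped in their differences. The 9 with CACGTG had median log2 differences, ZnF4 minus wt, of -0.86 in fraction B and -1.02 in fraction C, with ranges of -1.12 to -0.12 and -1.45 to -0.19. The 25 tested members without it had medians of -0.64 and -0.86 and spanned the wider ranges of -1.58 to 0.36 and -1.62 to 0.34. Gnl3, Ncl and Polr1b, with the largest mean differences, are among those without it in this window. Other motifs sat nearer the share of tested genes: the E-box variant CACGCG was in 25.7% of members and 20.4% of tested genes, the Ets core CCGGAAG in 28.6% and 21.7%, and TGGGAA, the core that Ikaros binds, in 28.6% and 26.2% (all searched on both strands). A match is a description of these letters and shows no binding.

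Myc was at 48.7 RPKM in wt, 25.7 in ZnF1 and 5.5 in ZnF4 in fraction B. In fraction C the same genotypes had 91.7, 22.5 and 11.3 RPKM. On the log2(RPKM + 1) scale ZnF4 stood 7.65-fold and 7.54-fold below wt, further than any member. Over the libraries the members' summed level was 1013.9 and 1635.4 RPKM in wt, 936.0 and 715.6 in ZnF1 and 581.8 and 791.3 in ZnF4 (fractions B and C). Both Myc and this sum were highest in the wt library of fraction C, next in that of fraction B, and lowest in the ZnF4 library of fraction B. The orders parted in fraction C, where ZnF4 held less Myc than ZnF1 but a slightly higher summed level of the members.

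**Figure D3:**
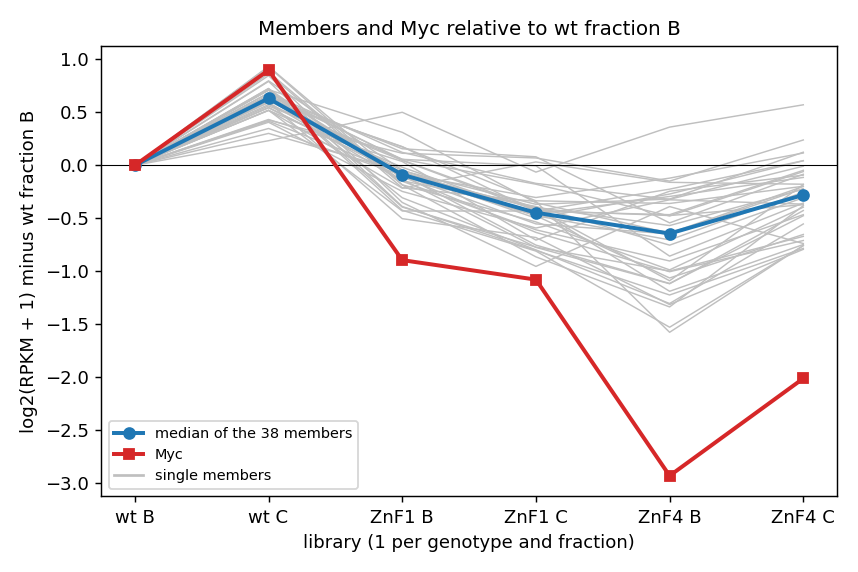
Level of Myc (red squares), of each of 38 members (grey) and of their median (blue circles) as log2(RPKM + 1) minus the value in the wt library of fraction B (vertical axis) in each of the 6 libraries (horizontal axis); lines only guide the eye. The members' median is 0.63 in the wt library of fraction C and -0.65 in the ZnF4 library of fraction B, where Myc is at 0.90 and -2.93.

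In ZnF1 the members lay close to wt in fraction B and below it in fraction C. In fraction B, Myc was 1.86-fold lower than in wt and the members had a median log2 difference of -0.09, with 26 of 38 lower (43.8% of all genes) and 0 at least 1.5-fold apart (6.58% of all genes were 1.5-fold lower and 7.56% 1.5-fold higher). Dkc1 was furthest below wt there (log2 -0.50) and Imp3 furthest above (0.50). In fraction C, Myc was 3.95-fold lower than in wt and all 38 members were lower (58.8% of all genes), 34 of them at least 1.5-fold (23%), with a median of -1.07 (2.10-fold). The largest differences there were those of Ppan (log2 -1.80), Gar1 (-1.75) and Rrp12 (-1.71). In the same library the 14 proB genes had a median log2 difference from wt of -0.34, beside the granulocyte and erythroid RNA given above; their part in the members' difference was not tested. In limma over all 6 libraries 0 of 38 members passed for ZnF1 against wt (0.0183% of all genes were called lower), and 6 had an unadjusted p under 0.05 as lower (4.31% of all genes). Without the ZnF1 library of fraction B, 34 passed as lower in limma (20.7% of all genes), a fit that sets the fraction C library of ZnF1 alone against wt; without the one of fraction C, 0 passed.

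The fraction C comparisons of both mutants use the same wt library, which held the highest value of 37 of 38 members (24.6% of all genes). From fraction B to fraction C in wt, all 38 members were higher (56.7% of all genes), 24 of them at least 1.5-fold (4.83%), with a median log2 difference of 0.63 beside 0.90 for Myc. Rrp12 (log2 0.93), Nolc1 (0.93) and Gar1 (0.88) were furthest apart and Imp3 (0.23) least. In ZnF4 the step from B to C had a median of 0.42, with 35 of 38 higher (61.3% of all genes) and 8 at least 1.5-fold (11.7%), and Myc at 0.92. In ZnF1 it was the reverse, with a median of -0.40, 36 of 38 lower (62.4% of all genes) and 7 at least 1.5-fold (15.7%), and Myc at -0.18. The 14 proB genes had a median of -1.22 in that ZnF1 step, so the members were lower by less than the proB genes. With libraries set to an equal mean of those genes the members' median became 0.58 and that of all tested genes 0.82. The difference in this step between genotypes could not be tested with 1 library each, and in limma over 6 libraries 0 of 38 members passed for C against B (0 at an unadjusted p under 0.05; 0% of all genes passed as higher).

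**Figure D4:**
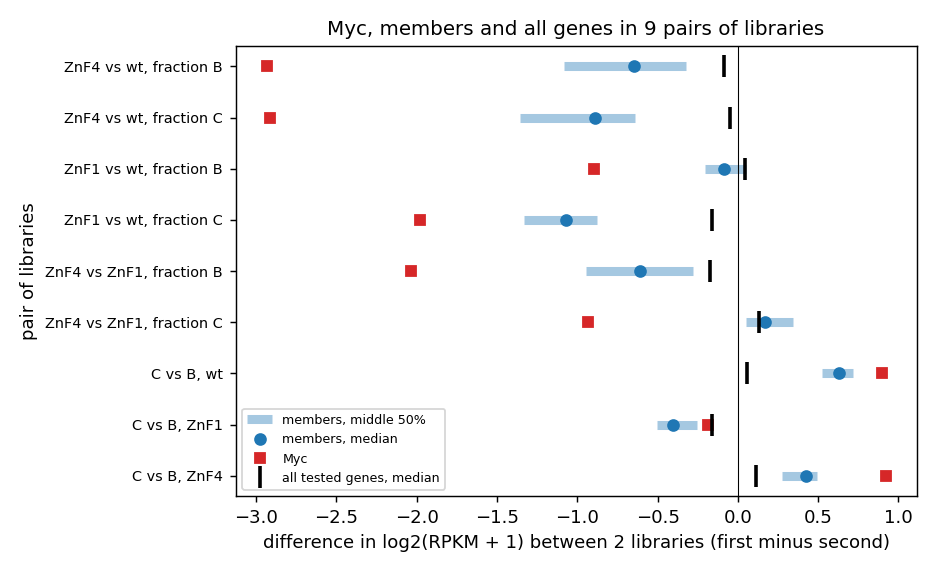
Difference in log2(RPKM + 1) (horizontal axis) between the libraries of 9 pairs (vertical axis): Myc (red squares), the median and middle 50% of the 38 members (blue) and the median of all tested genes (black ticks). The members' median lies on the same side of 0 as Myc in 8 pairs. So does the median of all tested genes in each of these but ZnF1 against wt in fraction B. In ZnF4 against ZnF1 in fraction C the members' median is 0.17 where Myc is at -0.93. The pairs share libraries and are not independent.

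Between the mutants, whose libraries all had Xist at 0 and the 4 Y-linked genes above 0, ZnF4 was lower than ZnF1 in fraction B and not in fraction C. In fraction B 36 of 38 members were lower (60.8% of all genes), 21 of them at least 1.5-fold (24.3%), with a median of -0.61 and Myc at -2.04. Dkc1 in fraction B was at 13.7 RPKM in ZnF4 and 24.8 in ZnF1, and Gnl3 at 13.9 and 37.4. In fraction C 30 of 38 were higher in ZnF4 (58.3% of all genes), 2 of them at least 1.5-fold (20% of all genes), with a median of 0.17 beside 0.13 for all genes, and Myc at -0.93. That fraction C pair includes the ZnF1 library with the granulocyte RNA. In limma over 6 libraries 0 of 38 members passed (0.676% of all genes were called lower), and 2 had an unadjusted p under 0.05 as lower (12.3% of all genes). Without the ZnF1 library of fraction C, 21 passed as lower in limma (16.1% of all genes), and without that of fraction B, 4 passed as higher (18.2% of all genes).

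Cell cycle genes were lower beside the members in fraction B, and mitosis genes were not in fraction C. In ZnF4 against wt, 30 DNA replication genes had a median log2 difference of -0.82 in fraction B and -0.30 in fraction C, and 30 mitosis genes -0.66 and 0.15, where the members had -0.65 and -0.89. In fraction C 23 of 30 mitosis genes were higher in ZnF4 (45.4% of all tested genes) and 37 of 38 members lower (53%). Markers of other marrow cells were also lower in ZnF4 than in wt. The summed level of the 16 granulocyte and monocyte markers was 3889.0 and 2738.3 RPKM in wt and 1035.5 and 1793.9 in ZnF4 (fractions B and C), sums above those of the members in the same libraries. Their median log2 difference was -1.94 and -0.56 over the 15 tested. Erythroid markers had medians of -1.71 and -0.91 (11 tested), natural killer markers of -2.58 and -1.76 (9 tested), and T-lineage markers of -0.68 and -0.75 (8 tested). Markers of plasmacytoid dendritic cells summed to 183.7 and 106.8 RPKM in wt and 90.9 and 72.7 in ZnF4, with medians of -2.25 and -1.27 over 9. The 14 proB genes had medians of 0.25 and 0.22 but were split, with ranges of -4.85 to 1.04 and -3.66 to 1.31. At least 1.5-fold lower were 6 and 3 of them (42.9% and 21.4%, against 21.3% and 15.8% of all tested genes). At least 1.5-fold higher were 3 and 4 (21.4% and 28.6%, against 10.1% and 9.48%). The part of cell cycle genes and of any other cells in the members' difference was not tested.

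The rest of the ribosome biogenesis pathway, 123 tested genes on 6 lists of known factors, was also compared between ZnF4 and wt. Lower in ZnF4 were 91 (74.0%) in fraction B and 100 (81.3%) in fraction C, against 55.8% and 53% of all tested genes. The medians were -0.30 and -0.44 on the log2 scale. At least 1.5-fold lower were 32 (26.0%, near the 21.3% of all tested genes) and 46 (37.4%, against 15.8%). In limma on the 4 wt and ZnF4 libraries 52 fell and 5 rose, where 19.4% and 12.5% of all tested genes were called, and 0 passed over all 6 libraries. Npm1, nucleophosmin, an abundant nucleolar chaperone, was at 21.8 and 39.0 RPKM in wt and at 5.8 and 11.1 in ZnF4, a low level that is uncertain for a gene with many near-identical copies. Nop10 and Nhp2, the remaining core proteins of the box H/ACA particle with Dkc1 and Gar1, were at 50.8 and 81.9, and at 42.9 and 82.6, in wt, and at 19.6 and 28.9, and 22.0 and 30.4, in ZnF4. All 4 core genes of that particle were thus lower in ZnF4 in both fractions. Bysl, a 40S assembly factor, was at 33.6 and 42.1 in wt and at 12.7 and 19.3 in ZnF4. In the other direction the 60S helicase gene Ddx54 was at 48.2 and 62.9 in wt and at 93.5 and 79.1 in ZnF4, and passed as higher in the fit of 4 libraries (adjusted p = 0.0463 in limma). The 12 other genes of polymerase I and its factors had medians of only -0.13 and -0.21.

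Of the Myc network, whose Mxd and Mnt proteins compete with Myc for Max, 11 genes were tested, Myc among them. Max, the shared partner, was at 35.5 and 36.4 RPKM in wt and 33.3 and 29.7 in ZnF4. The antagonists Mxd4 (39.9 and 24.2 in wt, 53.9 and 38.4 in ZnF4) and Mxi1 (7.1 and 6.0, then 10.8 and 10.2) were higher in ZnF4 in both fractions. Both passed in limma on 4 libraries (adjusted p = 0.0231 and 0.0257). That fit called 3 of the 11 genes higher and 2 lower, Myc among the lower, where 12.5% and 19.4% of all tested genes were called. Over all 6 libraries 0 of the 11 passed in limma, with adjusted p = 0.221 for Mxd4 and 0.368 for Mxi1. Mxd1 was at 14.4 and 9.9 RPKM in wt and 7.2 in both ZnF4 libraries, and at 128.8 in the ZnF1 library of fraction C with the granulocyte RNA.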

How the data were processed

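Total RNA of sorted proB cells was sequenced after Illumina TruSeq library preparation, per the labels' protocols. The deposited table holds RPKM per RefSeq transcript, per the file headers, as the authors calculated it, to 1 decimal. The submitters' processing notes list TopHat, bedtools and build mm9 with no version. Strand use, the denominator and the treatment of shared reads were not given in the sources used here. Gene_length, the transcript length in bases, is deposited per the file headers. Of 26532 entries, 1 without a name was left out, and 0 columns belonged to other samples. Whole reads could not be recovered (16.9% to 35.3% of low values of short transcripts came out whole, where 8.99% to 30.7% would by chance), so depth is unknown.

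Each of 3305 symbols with several transcripts was represented by that with the highest mean. Folds are differences in log2(RPKM + 1), which understates the change of low genes. Those averaging 1 RPKM or more were tested with limma 3.58.1 (R 4.3.3; lmFit and eBayes with trend, two-sided, Benjamini-Hochberg over 10943 genes, threshold 0.05) with additive genotype and fraction. P-values measure only the spread between these libraries, which is not known to include a spread between animals. The fit of 6 libraries was tested on simulated data with independent noise, and the fits of fewer libraries were not. Figures used matplotlib 3.10.9. Overlaps with other genes come from GENCODE M21 (GRCm38).

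Members and lists were chosen with earlier results of these data known. Members given in all libraries are, per role, the 2 with the lowest and the 1 with the highest mean log2 difference between ZnF4 and wt, and any member higher in both fractions. From other lists at most the 2 at either end are named, except the Myc network. The other members were named after their values were seen. Alternatives were pseudocount 0.25, no filter, summed transcripts, 2 centrings, no trend and leaving out libraries. A rescaling without Dntt was chosen after seeing the data.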

Additional observations from a re-analysis of the deposited data

Results flagged for a closer look

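The step from fraction B to fraction C went in opposite directions between genotypes: the median log2 difference over the 38 members was 0.63 in wt and 0.42 in ZnF4, and -0.40 in ZnF1. The ZnF4 mutant against the ZnF1 mutant likewise went in opposite directions between fractions, with a median of -0.61 in fraction B and 0.17 in fraction C. Neither difference was tested, because each is a single pair of libraries. Both include the ZnF1 library of fraction C, in which granulocyte and monocyte markers summed to 43724.5 RPKM and the 14 proB genes had a median log2 difference from fraction B of -1.22. Setting the libraries to an equal mean of the proB genes moved the ZnF1 step to 0.58. The median of all tested genes in it moved to 0.82. Such a rescaling moves every gene of a library equally, so it cannot change where the members lie relative to all genes.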

How the results depend on the processing

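The lower level of the members in ZnF4 than in wt kept its direction in both fractions under all 6 alternatives to the pairwise values. In fraction B, an equal mean of the 14 proB genes shifted the median of all genes in that comparison by 0.43, to 0.34. The members' median became -0.21, with 11 members at least 1.5-fold lower. With Dntt left off that list it was -0.55, with 18 members (all genes 0.0038). In fraction C the 2 rescalings gave -0.78 with 27 members and -1.06 with 34 (all genes 0.06 and -0.21). Rescaling on the 14 proB genes cannot change the gap between members and all genes. That list holds Dntt, at 568.7 RPKM in wt and 18.7 in ZnF4. Under this rescaling, and, where a second value is given, the rescaling without Dntt, the median in ZnF4 against ZnF1 became 0.16 and -0.18 in fraction B (all genes 0.60 and 0.26) and -0.026 and -0.30 in fraction C (all genes -0.06 and -0.34), and in the ZnF1 step from B to C 0.58 and 0.54 (all genes 0.82 and 0.79). Each change of sign came with a shift of all genes. Both rescalings move every gene of a library equally, so the members' side of the median of all genes could not change. The counts at 1.5-fold became 8 and 7 for ZnF1 below wt in fraction B (0 before), 1 and 7 for ZnF4 below ZnF1 in fraction B, 0 and 0 for ZnF4 above ZnF1 in fraction C, 37 and 37 for the wt step and 0 and 0 for the ZnF1 step. With the median of all genes set to 0, the counts were 0 for ZnF4 above ZnF1 in fraction C, 0 for the ZnF1 step and 5 for the ZnF4 step. Pes1, ZnF4 against wt over both fractions, turned to 0.10 when rescaled on all 14 proB genes. Imp4 and Nip7, at -0.21 and -0.27 before, also moved above 0, Nip7 only just, because the shift was equal for every gene.

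In limma, leaving out 1 library at a time gave 0 to 28 called members for ZnF4 against wt, 0 to 34 for ZnF1 against wt, 0 to 21 for ZnF4 against ZnF1 (4 without the ZnF1 library of fraction B, all higher) and 0 for C against B. The 4 libraries of wt and ZnF4 alone gave 28, and leaving out a ZnF1 library repeats that fit for ZnF4 against wt. These fits assume that a lone library varies like the other groups. Over all alternatives in limma the adjusted p of Myc for ZnF4 against wt ran from 0.00322 to 0.953. Pseudocount, filter, summed transcripts and trend changed no count of called members from 0. No paired analysis was possible because the labels give no replicate numbers and there is 1 library per group.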

Other observations

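RNA polymerase III makes the 5S ribosomal RNA and transfer RNAs, and the RNA exosome trims ribosomal RNA precursors. In ZnF4 against wt, the 14 polymerase III genes had median log2 differences of 0.02 in fraction B and -0.05 in fraction C. Maf1, the repressor of that enzyme, was at 64.6 and 56.1 RPKM in wt and at 104.7 and 94.3 in ZnF4, higher in 2 of 2 fractions (adjusted p = 0.00989 in limma on the 4 libraries of wt and ZnF4; 0 genes of this list passed over all 6). Polr3g, a subunit with a close paralog in Polr3gl, was at 3.7 and 5.8 RPKM in wt and at 1.9 and 2.4 in ZnF4. The 13 exosome genes had medians of -0.30 and -0.36, beside -0.30 and -0.44 for all 123 other pathway genes. Of the 13, 10 and 11 were lower, against 55.8% and 53% of all tested genes. They ran from Exosc8, at 53.2 and 72.7 RPKM in wt and 25.1 and 42.6 in ZnF4, to Exosc3, at 29.4 and 42.7 in wt and 34.1 and 43.4 in ZnF4.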
